A study of Mus musculus with 12 samples.

Results

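The collagen genes described here are the protein-coding genes whose symbols read Col, a number, a and a number, and whose count was above 10 in 3 or more of 12 libraries. Of 44 such genes in the mouse annotation used, 34 passed, among 16484 genes that passed of 56350 in all. All 11 fibrillar genes passed, 8 of 9 network genes, 6 of 9 FACIT genes (fibril-associated collagens with interrupted triple helices) and 9 of 15 others. The 10 that did not pass were Col4a6, Col6a4, Col6a5, Col6a6, Col9a1, Col13a1, Col19a1, Col22a1, Col25a1 and Col26a1. The cells were MPC2, a murine mesenchymal stem cell line that is conditionally immortalized and is 1 clone, and RNA was sequenced from 3 libraries in each of 4 conditions. MSCs were left undifferentiated at 33 °C, and osteocytes had spent 3 weeks at 37 °C in medium made osteogenic with beta-glycerophosphate and ascorbic acid. Each received DMSO vehicle or 50 µM FG-4592 (Roxadustat), an inhibitor of HIF prolyl hydroxylases, for 48 hours, and the libraries are called vehicle MSCs, FG-4592 MSCs, vehicle osteocytes and FG-4592 osteocytes. Temperature, media and time in culture went with differentiation and cannot be told apart from it.

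Collagens are built from 3 polypeptide chains that wind into a triple helix, and each gene encodes 1 kind of chain. Fibrillar chains, such as those of types I, III and V in bone and skin or II and XI in cartilage, pack into banded fibrils. Network chains form sheets, as in the type IV collagen of basement membranes and the hexagonal lattice of type VIII. FACIT collagens sit on the surface of fibrils, while the others include the type VI microfibrils, the anchoring fibrils of type VII, the multiplexins XV and XVIII and the transmembrane collagens XVII and XXIII. Chains are hydroxylated on proline and lysine in the endoplasmic reticulum by dioxygenases that need oxygen, iron, 2-oxoglutarate and ascorbate, a need they share with the HIF prolyl hydroxylases. Osteoblast-lineage cells secrete mostly type I collagen, the organic scaffold of bone mineral.

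The libraries held 52829185 to 68108470 counts each, at which depth 3 counts (what a gene with 0 counts could still have) equal 0.0447 to 0.0545 CPM by counting error alone. CPM are counts scaled to the TMM-normalized library size, and compare 1 gene between libraries. TPM also divide by the gene's exon length, and compare levels between genes. Nothing states that the 3 libraries of a condition came from separate cultures, so p-values measure the spread between these libraries, which may be technical. Of 12 osteoblast and osteocyte markers, 9 passed the filter, whereas Sost, Mepe and Pdpn had at most 3 counts over each condition. Their summed level was 7356 to 7891 TPM in vehicle MSCs, 9866 to 10110 in FG-4592 MSCs, 11900 to 15370 in vehicle osteocytes and 9913 to 13280 in FG-4592 osteocytes, most of it Spp1 (7042 to 14930 TPM over the 12 libraries). Several other markers of the list were lower with FG-4592. In MSCs Ibsp, a bone matrix sialoprotein, was at 103.7 to 119.3 TPM with vehicle and 5.22 to 7.14 TPM with FG-4592, and Alpl, the alkaline phosphatase of mineralising cells, at 64.4 to 80.6 and 15.7 to 18.6 TPM. In osteocytes Phex and Dmp1, both known from osteocytes, were at 30.8 to 38.9 and 12.4 to 19.2 TPM with vehicle and at 1.17 to 2.13 and 1.79 to 3.19 TPM with FG-4592. The part of these markers in the collagen values was not tested.

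The collagen genes took 2.73% ± 0.0578 (SD, n = 3) of all counts in vehicle osteocytes and 2.00% ± 0.0773 in vehicle MSCs. With FG-4592 the share was 2.24% ± 0.141 in osteocytes and 1.78% ± 0.0488 in MSCs. The network class differed most between conditions. Its summed level was 892.6, 854 and 896.8 TPM in vehicle MSCs, 814.4, 749.5 and 799.1 TPM in FG-4592 MSCs, 4432, 4375 and 4301 TPM in vehicle osteocytes and 1797, 1940 and 1767 TPM in FG-4592 osteocytes. Every library of vehicle osteocytes was thus above every library of the other conditions for this class. The sum of the FACIT class was higher with the treatment, at 185 ± 8.06 TPM in vehicle and 326 ± 30.1 TPM in FG-4592 MSCs, and at 208 ± 7.94 and 443 ± 20.6 TPM in the corresponding osteocytes. The log2 difference with FG-4592 was 0.81 ± 0.149 (combined SD) in MSCs and 1.09 ± 0.0862 in osteocytes, without overlap between libraries. The sum was carried by Col12a1 and Col16a1, and in MSCs the other 4 of 6 FACIT genes did not pass the FDR and the median log2 fold change of the class was −0.30. The fibrillar class was the steadiest, with means from 3817 TPM in FG-4592 MSCs to 4894 TPM in FG-4592 osteocytes. The other collagens summed to 4143 ± 215 TPM in vehicle MSCs and 3079 ± 145 TPM with FG-4592, and to 3268 ± 98.5 and 2795 ± 159 TPM in osteocytes. Sums were described without a test, since they follow their most abundant members. In bulk RNA, a change in the number of cells that express a gene and a change in RNA per cell cannot be told apart.

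**Figure D1:**
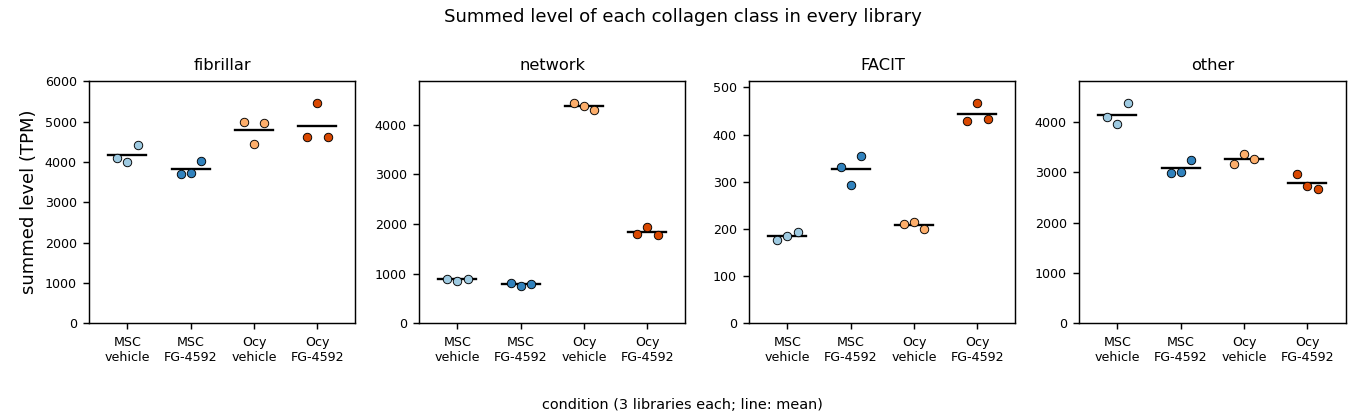
Summed level in TPM of the fibrillar, network, FACIT and other collagens (1 panel each, vertical axis from 0) in each of the 12 libraries, with a point per library and a line at the mean of 3. Network collagens are highest in vehicle osteocytes, at 4301 to 4432 TPM, and FACIT collagens are higher with FG-4592 in both cell types.

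The class sums rested on few genes. In vehicle MSCs the 4 most abundant members per length, Col6a1, Col1a2, Col1a1 and Col6a2, made up 75.8% of the collagen TPM. Col6a1, a chain of the type VI microfibrils, led at 2739 ± 148 TPM, followed by Col1a2 at 1701 ± 60.7 and Col1a1 at 1630 ± 137 TPM, whose libraries overlapped. In vehicle osteocytes Col8a1 led instead. It held 2847 ± 114 TPM, or 22.5% of the collagen total, against 2.98% in vehicle MSCs. With FG-4592 Col8a1 stood at 746 ± 118 TPM in osteocytes, 7.46% of the total, and the 3 highest members, Col1a1 (1624 ± 256), Col1a2 (1594 ± 130.1) and Col6a1 (1501 ± 77.0 TPM), had overlapping libraries. Between 10 and 13 of the 34 members were under 1 TPM in each condition. Such levels depend on the exon length used, 12426 bases for Col1a2 and 6563 for Col1a1, so an order between neighbours is less firm than a change within a gene.

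Changes were tested on counts in edgeR's quasi-likelihood test with Benjamini-Hochberg adjustment over all 16484 genes (FDR). "Rose" and "fell" are used at an FDR under 0.05, and "past both cutoffs" adds an absolute log2 fold change above 1. The comparisons with FG-4592 in MSCs and in osteocytes share no library, but each shares its libraries with the comparisons of osteocytes with MSCs and with the difference of the responses.

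**Figure D2:**
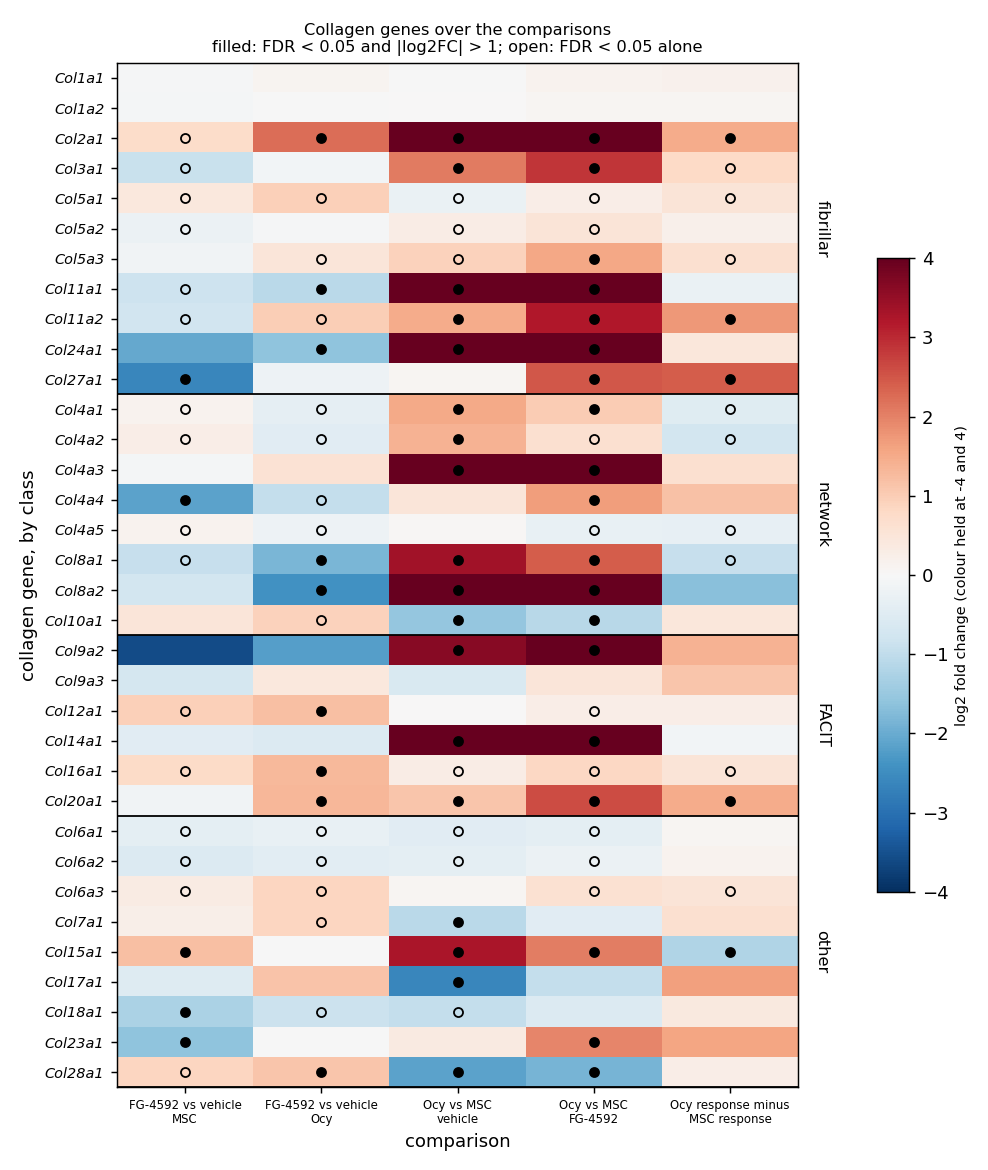
Log2 fold change (colour, held at -4 and 4) of the 34 collagen genes, ordered by class, in the 4 comparisons and in the difference of the FG-4592 responses. Filled circles mark an FDR under 0.05 with an absolute log2 fold change above 1, open circles an FDR under 0.05 alone. Col1a1 and Col1a2 carry no circle in any column.

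In MSCs given FG-4592, Col15a1 rose past both cutoffs, 1 of 34 members against 4.12% of all genes tested. Col27a1, Col4a4, Col23a1 and Col18a1 fell past both cutoffs, 4 of 34 (11.8%) against 5.17% of all genes. Without MSC vehicle replicate 3 these counts were 3 up and 3 down. By FDR alone 10 members rose and 11 fell, 29.4% and 32.4% of the members against 17.6% and 20.4% of all genes. The median log2 fold change of the 34 was −0.20, beside −0.05 over all genes.

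Col27a1, a fibrillar collagen of cartilage, fell furthest. It measured 18.8, 18.4 and 19.4 CPM in vehicle MSCs and 3.69, 3.05 and 2.53 CPM with FG-4592, with a wide gap between the groups (log2 fold change −2.61, SE 0.12, FDR = 8.34e-11). Col18a1, the multiplexin whose C-terminal fragment is endostatin, went from 4.89, 3.86 and 4.53 to 1.66, 2.04 and 1.78 CPM (−1.27, SE 0.23, FDR = 0.000369). Col4a4, a type IV chain of specialised basement membranes, was low throughout, at 2.31, 1.17 and 1.35 CPM before and 0.336, 0.238 and 0.515 CPM after (−2.14, SE 0.35, FDR = 0.000136). In these 3 genes no treated library reached the lowest vehicle library. Col23a1, a transmembrane collagen, rested on 35, 34 and 53 counts against 12, 30 and 1. Its fall of −1.60 (FDR = 0.0462) missed the FDR without any one of 9 of the 12 libraries (all 3 MSC vehicle and all 3 osteocyte FG-4592 libraries, osteocyte vehicle replicate 2, MSC FG-4592 replicates 1 and 3), where it lay between −1.05 and −1.69.

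Col15a1, the other multiplexin, measured 20.8, 22.8 and 20.8 CPM in vehicle MSCs and 50.2, 44.7 and 53.9 CPM with FG-4592 (1.21, SE 0.07, FDR = 1.79e-09). It shares 14 exonic bases with Gm12426. The FACIT gene Col12a1, which coats type I fibrils, came close to the fold cutoff, at 522, 549.5 and 562 CPM against 1097, 935 and 1146 CPM (0.96, SE 0.06, FDR = 6.13e-09), and passed it without MSC vehicle replicate 3 (1.02) or MSC FG-4592 replicate 2 (1.04). Col16a1, another FACIT gene, rose from 76.5, 84.3 and 81.2 to 138, 139.9 and 132 CPM (0.76, SE 0.07). These 3 genes had no overlap between treated and vehicle libraries. The smaller rises past the FDR were those of Col28a1 (0.86), Col2a1 (0.74, and 1.18 without MSC vehicle replicate 3), Col5a1 (0.44), Col6a3 (0.33), Col4a2 (0.28), Col4a5 (0.14) and Col4a1 (0.13). With upper-quartile factors, or with library size alone, which moved the median of all genes to −0.13, Col2a1, Col4a5 and Col4a1 missed the FDR.

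Among the abundant collagens of MSCs, Col3a1 and Col8a1 fell by almost the fold cutoff. Col3a1, which forms mixed fibrils with type I collagen, measured 405, 409 and 396 CPM with vehicle and 211, 206 and 229.9 CPM with FG-4592 (−0.90, SE 0.09, FDR = 6.35e-07). Col8a1, a short network chain known from Descemet membrane and vessel walls, went from 612, 546 and 562 to 319, 290 and 308 CPM (−0.91, SE 0.09, FDR = 3.33e-07). The groups were clearly apart for both. The low-level type XI chains Col11a1 (−0.82) and Col11a2 (−0.75), the type VI chains Col6a2 (−0.55) and Col6a1 (−0.39) and Col5a2 (−0.24) also fell. Col14a1 did not pass the FDR (−0.45, FDR = 0.329), but reached −1.07 with an FDR of 0.0096 without MSC FG-4592 replicate 1.

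In osteocytes given FG-4592, most network genes fell and 3 of 6 FACIT genes rose. Past both cutoffs 5 members rose, 14.7% against 6.25% of all genes, and 4 fell, 11.8% against 4.26%. With each library left out, these falls numbered 2 to 6. By FDR alone 11 rose and 11 fell, 32.4% each against 21.9% and 22% of all genes. Of the 8 network genes 6 fell and 1 rose, with a median log2 fold change of −0.41. Of the 6 FACIT genes 3 rose, each past both cutoffs, and none fell (median 0.81). The median of all 34 was −0.01 and that of all genes 0.00.

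Col8a1 had the largest drop of an abundant collagen. It measured 6001, 5701 and 5803 CPM in vehicle osteocytes and 1463, 1946 and 1483 CPM in FG-4592 osteocytes, where the highest treated library was far below the lowest vehicle library (−1.84, SE 0.09, FDR = 5.68e-11). Its partner chain in the type VIII lattice, Col8a2, fell from 5.80, 4.89 and 7.25 to 1.29, 0.965 and 1.09 CPM (−2.42, SE 0.34, FDR = 1.99e-05). Both chains of this collagen thus fell, at levels that differ by orders of magnitude. Col11a1, which sets fibril diameter together with types II and V, went from 399, 323 and 357 to 144, 189 and 178 CPM (−1.08, SE 0.13, FDR = 3.08e-06), and to −0.97 without osteocyte FG-4592 replicate 1. Col24a1, a fibrillar collagen known from developing bone, had 85, 67 and 63 counts with vehicle and 24, 30 and 18 with FG-4592 (−1.60, SE 0.58, FDR = 0.0344). Its groups did not overlap, but the FDR lay between 0.0771 and 0.108 without osteocyte vehicle replicate 1 or 2 or osteocyte FG-4592 replicate 1 or 3.

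Of the 5 type IV chains tested, 4 fell in osteocytes, and Col4a3 did not pass the FDR (0.58, FDR = 0.484). Col4a1 measured 1563, 1715 and 1680 CPM with vehicle and 1316, 1260 and 1286 CPM with FG-4592 (−0.36, SE 0.05, FDR = 8.69e-06). Col4a2, with which Col4a1 forms the common type IV network, measured 939.7, 1095 and 1049 CPM and then 733, 730.5 and 767 CPM (−0.47, SE 0.06, FDR = 4.49e-06). No treated library reached a vehicle library in either gene. Col4a5 (−0.21) and Col4a4 (−0.96) fell as well, the latter reaching −1.07 to −1.10 without osteocyte vehicle replicate 2 or 3 or osteocyte FG-4592 replicate 3, −1.06 with library size alone and −1.001 with upper-quartile factors. Outside the networks, Col18a1 went from 3.25, 1.92 and 1.69 to 1.42, 1.13 and 1.21 CPM (−0.87, FDR = 0.00744; −1.07 without osteocyte vehicle replicate 3), Col6a2 fell by 0.42 and Col6a1 by 0.31 on the log2 scale.

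Col2a1, the main chain of cartilage fibrils, rose furthest in osteocytes. It measured 52.6, 72.0 and 63.6 CPM with vehicle and 242, 306 and 333 CPM with FG-4592 (2.23, SE 0.13, FDR = 7.05e-10), every treated library lying well above the vehicle libraries. Of 8 cartilage markers fixed without collagens, only Sox9, Comp and Matn3 passed the filter. Sox9, a transcription factor of cartilage cells, was at 50.9, 50.6 and 41.9 TPM with vehicle and 108, 107 and 95.5 TPM with FG-4592, whereas Acan and Hapln1, which encode the aggregating proteoglycan of cartilage and its link protein, had at most 3 counts in either condition. Sox9 was also higher with FG-4592 in MSCs, at 74.7 to 83.4 TPM with vehicle and 129.4 to 137.1 TPM with FG-4592. Comp, a cartilage and tendon matrix protein, was at 8.82 to 10.3 TPM in vehicle and 10.7 to 13.8 TPM in FG-4592 osteocytes, whereas Matn3, a cartilage matrilin, was lower, at 0.660 to 1.48 and 0.0186 to 0.154 TPM. The summed cartilage list was 53.9 to 61.4 TPM in vehicle and 109.6 to 120.5 TPM in FG-4592 osteocytes, most of it Sox9. The part of this list in the Col2a1 values was not tested.

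The 3 FACIT genes that rose in osteocytes differed in level. Col12a1 measured 563, 549 and 543 CPM with vehicle and 1240, 1355 and 1236 CPM with FG-4592 (1.21, SE 0.06, FDR = 2.83e-10). Col16a1 measured 90.6, 108 and 97.3 CPM and then 219.8, 256 and 246 CPM (1.29, SE 0.07, FDR = 2.39e-10). Col20a1 was low, at 3.42, 5.05 and 4.12 CPM and then 8.74, 10.9 and 11.9 CPM (1.33, SE 0.18, FDR = 1.5e-05), and shares 79 exonic bases with the neighbouring 9230112E08Rik. The groups were apart in each. The remaining FACIT genes did not pass the FDR. Col14a1 gave −0.56 (FDR = 0.0603) and Col9a3 0.41 (FDR = 0.455). Col9a2 had 55 counts over the 3 vehicle libraries and 12 over the treated ones (FDR = 0.0767). It passed both cutoffs downward without osteocyte FG-4592 replicate 3 (FDR = 0.0311) and in the likelihood ratio test (FDR = 0.02). However, Col9a2 passed the filter through the 3 vehicle osteocyte libraries only, so a lower level with FG-4592 was built into its being tested.

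Col28a1, a beaded-filament collagen, went from 0.482, 0.395 and 0.358 to 1.03, 1.13 and 0.528 CPM in osteocytes (1.12, SE 0.30, FDR = 0.00702; 0.92 without osteocyte FG-4592 replicate 2). Below the fold cutoff, Col5a1, the chain that starts and limits fibrils of type I collagen, measured 666, 753 and 739.9 CPM with vehicle and 1281, 1559 and 1364 CPM with FG-4592 (0.96, SE 0.07, FDR = 7.98e-09). Col11a2, a type XI chain, measured 9.70, 9.40 and 9.56 CPM and then 16.3, 19.8 and 20.2 CPM (0.97, SE 0.15, FDR = 5.11e-05). Without osteocyte FG-4592 replicate 1 these 2 genes passed the fold cutoff, at 1.02 and 1.06. Col6a3 (0.86), Col5a3 (0.49), Col7a1 (0.86), which forms anchoring fibrils, and Col10a1 (0.92), the network collagen of hypertrophic cartilage, completed the rises. Col10a1 measured 0.979, 0.809 and 0.293 CPM and then 1.34, 1.34 and 1.25 CPM, reached 1.24 and 1.02 without osteocyte vehicle replicate 1 or 2, and missed the FDR with library size alone.

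**Figure D3:**
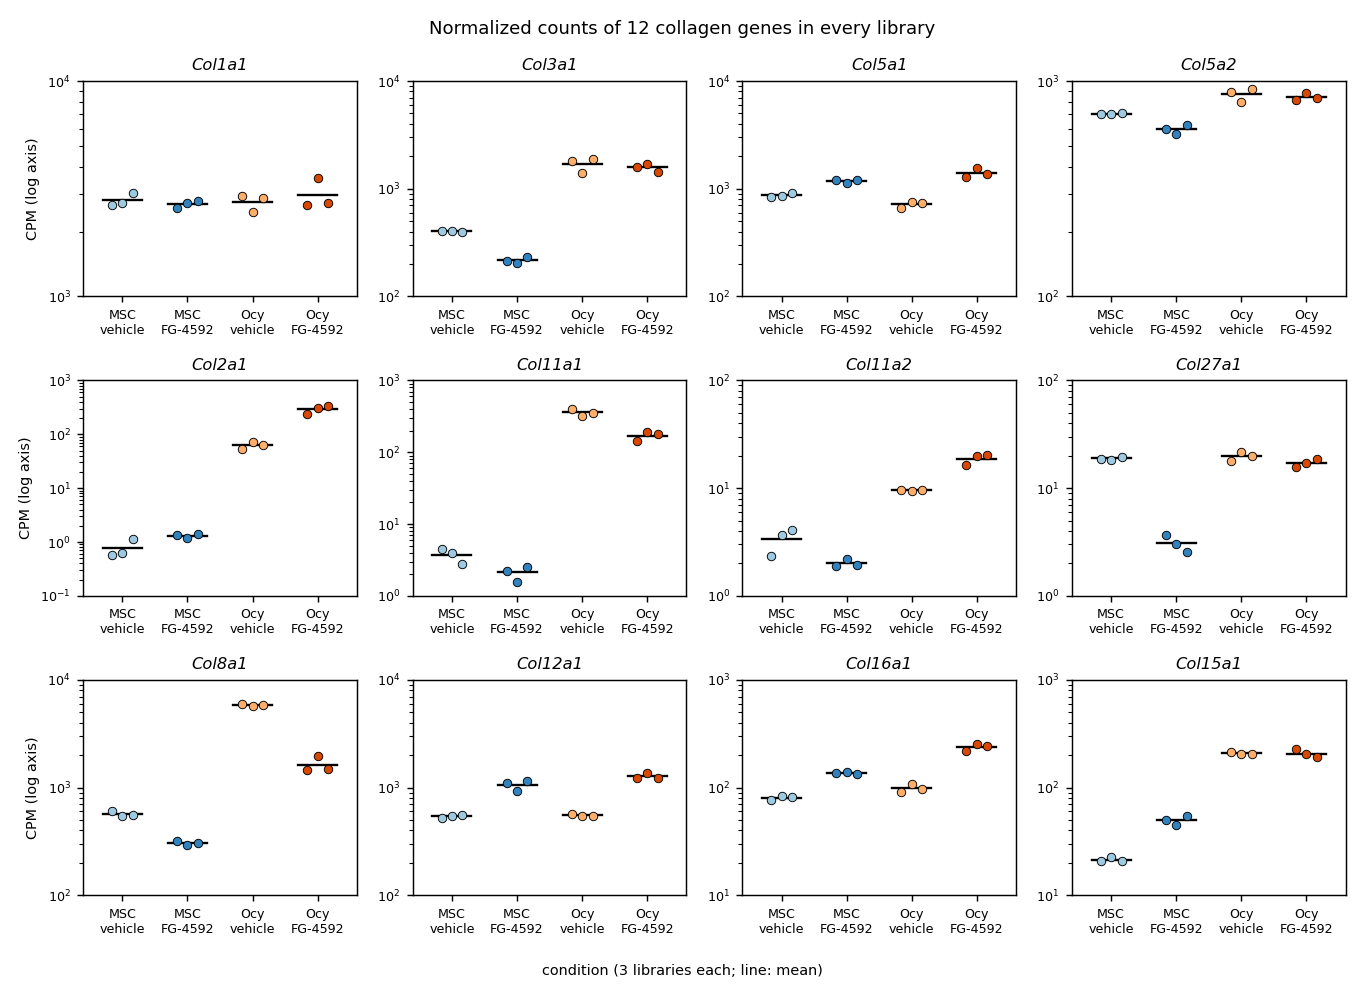
CPM (log axis, scale set per panel) of 12 collagen genes in each library, with a point per library and a line at the mean of 3. The libraries of Col1a1 overlap between conditions, Col8a1 is highest in vehicle osteocytes (5701 to 6001 CPM), Col27a1 is low in FG-4592 MSCs alone (2.53 to 3.69 CPM), and Col12a1 and Col16a1 are higher with FG-4592 in both cell types.

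Type I collagen, the main product of the lineage, did not pass the FDR in any comparison. Col1a1 measured 2665, 2706 and 3025 CPM in vehicle MSCs, 2576, 2719 and 2784 CPM in FG-4592 MSCs, 2938, 2460 and 2850 CPM in vehicle osteocytes and 2657, 3546 and 2711 CPM in FG-4592 osteocytes. Col1a2 measured 5519, 5440 and 5630 CPM, 5242, 5175 and 5360 CPM, 5426, 5388 and 5860 CPM and 5136, 6099 and 5326 CPM in the same order. The libraries of Col1a1 overlapped in each comparison, and those of Col1a2 in all but FG-4592 against vehicle in MSCs (−0.07, SE 0.05, FDR = 0.329). The 4 log2 fold changes of Col1a1 lay between −0.06 and 0.14 with an SE of 0.09, and those of Col1a2 between −0.07 and 0.07 with an SE of 0.05, so that the largest differ from 0 by under 2 standard errors. An FDR that misses the threshold does not show that the level was the same. Osteocyte FG-4592 replicate 2 was the highest of the 12 libraries for both chains.

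Col5a2, a type V chain, measured 700.3, 705 and 713 CPM in vehicle MSCs, 601, 568 and 623 CPM in FG-4592 MSCs, 892, 801 and 914 CPM in vehicle osteocytes and 816, 880.3 and 836 CPM in FG-4592 osteocytes. It fell with FG-4592 in MSCs (−0.24, FDR = 0.00176), while the osteocyte libraries overlapped (−0.04, FDR = 0.571), and was higher in osteocytes than in MSCs with vehicle (0.30, FDR = 0.000191) and with FG-4592 (0.50, FDR = 6.78e-07). Col3a1 measured 1806, 1401 and 1884 CPM in vehicle and 1606, 1711 and 1429 CPM in FG-4592 osteocytes, which overlapped (−0.10, FDR = 0.388).

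Promoter sequences are printed for 4 genes, chosen after their values were seen, to show what lies before the start of members that rose (Col5a1, Col6a3) and of members that fell (Col8a1, Col11a1). Their windows hold no annotated exon. Each is the 250 bases before the RefSeq start, on mouse build GRCm38.p6, written 5′ to 3′ on the gene's strand. Capitals mark the core letters of the HIF response element, ACGTG or GCGTG, on either strand, with overlapping matches merged.
Col5a1, chr2:27886175-27886424, plus strand: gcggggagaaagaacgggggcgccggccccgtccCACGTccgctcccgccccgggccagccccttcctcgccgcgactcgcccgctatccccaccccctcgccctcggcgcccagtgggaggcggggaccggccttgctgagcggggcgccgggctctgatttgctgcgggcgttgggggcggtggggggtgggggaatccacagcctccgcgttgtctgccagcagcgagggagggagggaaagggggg
Col6a3, chr1:90843972-90844221, minus strand: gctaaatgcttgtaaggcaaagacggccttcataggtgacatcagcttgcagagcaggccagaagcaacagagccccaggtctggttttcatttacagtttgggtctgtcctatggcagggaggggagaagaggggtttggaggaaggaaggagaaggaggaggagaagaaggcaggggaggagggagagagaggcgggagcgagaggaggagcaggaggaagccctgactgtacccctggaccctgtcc
Col8a1, chr16:57754738-57754987, minus strand: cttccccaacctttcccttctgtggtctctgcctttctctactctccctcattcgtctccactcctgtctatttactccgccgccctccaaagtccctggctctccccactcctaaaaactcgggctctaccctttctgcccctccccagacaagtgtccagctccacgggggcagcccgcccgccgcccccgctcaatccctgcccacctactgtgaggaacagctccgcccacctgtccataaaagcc
Col11a1, chr3:114030290-114030539, plus strand: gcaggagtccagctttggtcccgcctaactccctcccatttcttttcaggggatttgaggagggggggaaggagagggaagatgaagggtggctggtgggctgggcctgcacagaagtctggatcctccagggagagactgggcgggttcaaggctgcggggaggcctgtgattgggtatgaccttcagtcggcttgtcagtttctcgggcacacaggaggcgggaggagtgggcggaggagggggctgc
Col5a1 held 1 match, and Col6a3, Col8a1 and Col11a1 held none. Of the 34 members 27 had a promoter in the RefSeq table, and 9 of these (33.3%) held a match, beside 38.6% of all 32851 promoters of this length. Among the members that rose in osteocytes by FDR, 4 of 9 with a promoter held a match (Col5a1, Col5a3, Col11a2 and Col16a1), and among those that fell, 4 of 11 did (Col4a1, Col4a2, Col4a4 and Col6a2). The windows of these 4 that fell hold exons and are not printed. A match is a description of these letters and not a site.

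The response to FG-4592 differed between osteocytes and MSCs past both cutoffs for 5 members. Col27a1, Col11a2, Col2a1 and Col20a1 responded more positively in osteocytes, 4 of 34 (11.8%) against 3.94% of all genes, and Col15a1 more negatively, 1 of 34 against 1.07%. By FDR alone 9 members were higher and 5 lower in this contrast, 26.5% and 14.7% against 13.3% and 11% of all genes. Col27a1 gave the largest difference, 2.41 (SE 0.16, FDR = 4.55e-08): its osteocyte libraries measured 17.9, 21.6 and 19.8 CPM with vehicle and 15.7, 17.1 and 18.8 CPM with FG-4592, which overlapped (−0.20, FDR = 0.156), beside the fall in MSCs. Col11a2 fell in MSCs, from 2.36, 3.69 and 4.10 to 1.88, 2.22 and 1.94 CPM, and rose in osteocytes, with a difference of 1.73 (SE 0.23, FDR = 4.27e-05). Col2a1 rose in both, from 0.563, 0.618 and 1.13 to 1.34, 1.19 and 1.41 CPM in MSCs, and differed by 1.48 (SE 0.32, FDR = 0.00277). Col20a1, at 1.51, 1.89 and 2.39 and then 1.75, 1.67 and 1.80 CPM in MSCs, which overlapped, differed by 1.48 (SE 0.27, FDR = 0.000707). Col15a1 measured 213, 204 and 206 CPM in vehicle and 226, 203 and 192 CPM in FG-4592 osteocytes, without the rise seen in MSCs (difference −1.21, SE 0.10, FDR = 3.24e-07).

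By FDR alone, none of the 8 network genes responded more positively in osteocytes and 4 responded more negatively: Col8a1 (−0.93), Col4a2 (−0.74), Col4a1 (−0.49) and Col4a5 (−0.34). The 3 type IV chains rose slightly in MSCs and fell in osteocytes, the MSC part passing the FDR under each scaling for Col4a2 but not for Col4a1 and Col4a5. The other 4 network genes did not pass the FDR, with Col4a4, Col4a3 (0.64) and Col10a1 (0.44) positive. Of the 11 fibrillar genes 6 were higher and none lower, which were Col27a1, Col11a2 and Col2a1 above and Col3a1 (0.80), Col5a3 (0.64) and Col5a1 (0.53) under the fold cutoff. Col8a1 passed the fold cutoff without MSC vehicle replicate 1 (−1.03) or osteocyte FG-4592 replicate 2 (−1.08). Col4a4 (1.18, FDR = 0.0822) and Col23a1 (1.59, FDR = 0.177) passed only without MSC FG-4592 replicate 3 (1.52) and MSC FG-4592 replicate 2 (2.64) respectively.

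Between the cell types under vehicle, more collagen genes were higher in osteocytes. Past both cutoffs 14 of 34 (41.2%) rose against 9.83% of all genes, and 4 (11.8%) fell against 6.08%. By FDR alone 17 rose and 8 fell, 50% and 23.5% against 26% and 24.9%. Of the 14, 4 (Col8a2, Col24a1, Col4a3 and Col9a2) passed the filter through osteocyte libraries only, so that a higher level there was built into their being tested. With FG-4592 in both cell types 17 members were higher and 2 lower past both cutoffs, 50% and 5.88% against 12.6% and 5.64% of all genes. By FDR alone these were 23 and 5, or 67.6% and 14.7% against 30.5% and 25.3%. The 17 include the same 4 genes, with the same limit for Col8a2, Col24a1 and Col4a3. Col9a2 passed the filter through vehicle osteocytes alone, which are not in this comparison, and had 0, 3 and 9 counts in FG-4592 osteocytes. The adipocyte list also moved with the cell type, 5 of its 6 markers passing the filter and its summed level being 119.4 to 122.3 TPM in vehicle MSCs and 3868 to 5291 TPM in vehicle osteocytes (85.8 to 91.5 and 3855 to 4581 TPM with FG-4592), with Lep at or under 3 counts in each condition. Its part in the collagen values was not tested.

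Of the fibrillar genes, Col11a1, Col2a1, Col3a1, Col11a2 and Col24a1 rose past both cutoffs in osteocytes with vehicle and with FG-4592. Col11a1 measured 4.52, 3.98 and 2.78 CPM in vehicle MSCs (2.21, 1.58 and 2.56 CPM with FG-4592), so that its level in osteocytes was higher by 6.59 (SE 0.17, FDR = 2.45e-14) on the log2 scale with vehicle and 6.33 (SE 0.17) with FG-4592. Col2a1 was higher by 6.32 (SE 0.19, FDR = 2.14e-13) and 7.81 (SE 0.18). Per length, Col11a1 stood at a mean of 1.13 TPM in vehicle MSCs and 108 TPM in vehicle osteocytes, and Col2a1 at 0.320 and 25.9 TPM. Col3a1 was higher by 2.07 (SE 0.09, FDR = 1.96e-11) and 2.87 (SE 0.09), and Col11a2 by 1.49 (SE 0.16) and 3.22 (SE 0.17). Col27a1 differed with FG-4592 (2.48, SE 0.12) but not by the test with vehicle (0.07, FDR = 0.647). Col24a1 had 9 counts over the vehicle MSC libraries and 215 over the osteocyte libraries, a ratio of 23.2 with a counting interval of 12.0 to 51.5. Col5a3, a minor type V chain, measured 8.70, 10.2 and 11.6 CPM in vehicle MSCs and 17.6, 20 and 20.6 CPM in vehicle osteocytes (0.93, SE 0.10; 1.07 without MSC vehicle replicate 3, and 1.02 when replicate 1 of the vehicle osteocytes was left out), and differed by 1.56 (SE 0.11) with FG-4592. Col5a1 was slightly lower in osteocytes with vehicle (−0.27, FDR = 0.00295) and slightly higher with FG-4592 (0.25, FDR = 0.00417).

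Of the network genes, Col8a1 was higher in osteocytes by 3.35 (SE 0.09, FDR = 5.74e-14) with vehicle and 2.41 (SE 0.09) with FG-4592. Col8a2 had 2, 6 and 0 counts in vehicle MSCs and 385, 272 and 446 in vehicle osteocytes, a ratio of 134 (counting interval 67.8 to 312). Col4a1 was higher by 1.5 (SE 0.05) with vehicle and 1.01 (SE 0.05) with FG-4592, the second at the fold cutoff. It went under that cutoff, to between 0.9604 and 0.9998, in 14 alternatives: without any one of 9 of the 12 libraries (all but MSC FG-4592 replicate 1 and osteocyte FG-4592 replicates 2 and 3), with RLE factors, upper-quartile factors or library size alone, in the fit of the 6 libraries compared and in DESeq2. Col4a2 was higher by 1.39 (SE 0.06) and 0.65 (SE 0.06). Col4a3 had 1 count over the vehicle MSC libraries and 93 over the osteocyte libraries, a ratio of 90.5 with a counting interval of 15.9 to 3612, and 5.65% of its exonic bases are shared with C430014B12Rik. Col4a4 was higher with FG-4592 (1.68, SE 0.35, FDR = 0.000719) but not by the test with vehicle (0.50, FDR = 0.201). Col10a1 was lower in osteocytes, by −1.54 (SE 0.33, FDR = 0.00104) with vehicle and −1.10 (SE 0.32, FDR = 0.00726) with FG-4592 (−0.97 without MSC FG-4592 replicate 2), from 1.98, 1.89 and 2.22 CPM and 3.14, 3.31 and 2.01 CPM in the MSCs.

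Of the FACIT genes, Col14a1, which binds type I fibrils, was at 0.763, 1.14 and 1.3 CPM in vehicle MSCs and 19.8, 20.6 and 15.5 CPM in osteocytes (4.11, SE 0.28, FDR = 4.33e-09), and at 1.38, 0.521 and 0.500 against 12.1, 15.5 and 10.4 CPM with FG-4592 (4.00, SE 0.29). Col20a1 was higher by 1.11 (SE 0.19) with vehicle and by 2.60 (SE 0.19) with FG-4592. The first of these became 1.0 or 0.99 on leaving out replicate 1 of the vehicle MSCs or replicate 2 of the vehicle osteocytes. Col9a2 had 0, 3 and 1 counts in vehicle MSCs and 17, 24 and 14 in osteocytes. With FG-4592 Col9a2 had no count in MSCs and 0, 3 and 9 counts in osteocytes, so that the groups overlapped. Set against 3 counts over the MSC libraries, the 12 osteocyte counts were 4.09-fold higher. The lower 95% counting limit of the ratio was 2.84. This call was lost without osteocyte FG-4592 replicate 3 (FDR = 0.138) or any MSC FG-4592 library (FDR = 0.0571 to 0.0628). Col12a1 did not pass the FDR between the cell types with vehicle (0.02, FDR = 0.828) and was higher in osteocytes with FG-4592 (0.27, FDR = 0.00193).

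Of the other collagens, Col15a1 was higher in osteocytes by 3.27 (SE 0.08, FDR = 8.6e-15) with vehicle and 2.06 (SE 0.07) with FG-4592. Col23a1 was higher with FG-4592 (1.95, FDR = 0.011). The falls past both cutoffs were in genes at low levels. Col28a1 went from 1.64, 1.87 and 1.92 to 0.482, 0.395 and 0.358 CPM with vehicle (−2.13, SE 0.30, FDR = 1.82e-05) and differed by −1.87 (SE 0.28) with FG-4592, where the MSCs held 3.99, 2.98 and 2.89 CPM. Col17a1, the hemidesmosome collagen, went from 36, 34 and 32 to 8, 9 and 0 counts (−2.60, FDR = 0.00615). Col7a1 went from 3.52, 2.74 and 2.95 to 0.979, 1.67 and 1.69 CPM (−1.09, SE 0.26, FDR = 0.00255; −0.95 without MSC vehicle replicate 1, −0.83 without osteocyte vehicle replicate 1). Col18a1 was lower by −0.95 (FDR = 0.00265), and by −1.0 and −1.26 without MSC vehicle replicate 2 and osteocyte vehicle replicate 1. The abundant chains Col6a1 (−0.47) and Col6a2 (−0.38) were lower with vehicle, while Col6a3 was not called different (0.07, FDR = 0.295).

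Chains that share a molecule did not always keep their ratio. The ratio of Col5a1 to Col5a2, the chains of the common type V molecule, was 1.39 in vehicle MSCs and 2.22 with FG-4592 on the TPM scale, and 0.936 and 1.87 in osteocytes. The log2 ratio moved by 0.68 ± 0.0565 (combined SD) in MSCs and 1.00 ± 0.191 in osteocytes, and no treated library overlapped a vehicle library. The ratio of Col1a1 to Col1a2 was 0.957, 0.969, 0.935 and 1.01 in vehicle MSCs, FG-4592 MSCs, vehicle osteocytes and FG-4592 osteocytes, with overlap in each comparison. These are ratios of mRNA, whose level depends on the exon lengths used, while their shifts between conditions do not.

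The ratio of Col11a1 to Col5a1, chains that occur together in mixed type V and XI fibrils, was 0.332 in vehicle osteocytes and 0.0807 with FG-4592 (log2 shift −2.04 ± 0.267). In MSCs the ratio was 0.00283 and 0.00118. Of the type VI chains, Col6a1 to Col6a2 moved by 0.16 ± 0.0172 in MSCs and 0.11 ± 0.0634 in osteocytes, while Col6a3 to Col6a1, a pair added after its values were seen, went from 0.124 to 0.204 in MSCs and from 0.180 to 0.406 in osteocytes (0.72 ± 0.153 and 1.18 ± 0.0173). The underlying levels of Col6a3 were 1020, 1109 and 1053 CPM and then 1421, 1236 and 1355 CPM in MSCs, and 1064, 1157 and 1126 CPM and then 2123, 2015 and 1953 CPM in osteocytes. Col4a1 to Col4a2 moved by −0.14 ± 0.0366 in MSCs and 0.11 ± 0.0665 in osteocytes. Col8a1 exceeded Col8a2 by a ratio of 566 in vehicle and 836 in FG-4592 osteocytes, with overlapping libraries, and Col9a1 did not pass the filter, so no type IX ratio was formed.

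**Figure D4:**
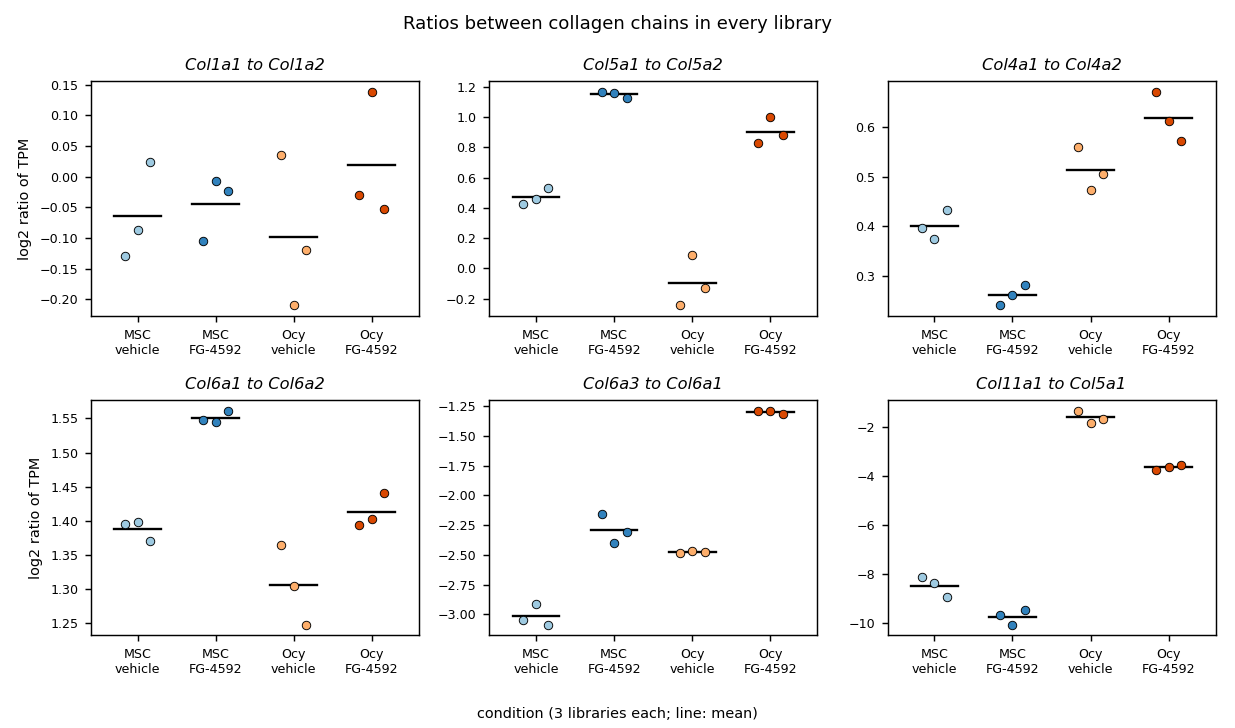
Log2 ratio of TPM between pairs of collagen chains in each library (vertical axis set per panel), with a point per library and a line at the mean of 3. Col5a1 to Col5a2 and Col6a3 to Col6a1 are higher with FG-4592 in both cell types, and Col1a1 to Col1a2 overlaps throughout.

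Several members are neighbours in the genome. On mm10, Col4a1 (chr8:11198423-11312826, minus strand) and Col4a2 (chr8:11312805-11449287, plus strand) lie head to head with 22 bases in common, and had the same sign in each comparison, from −0.36 and −0.47 with FG-4592 in osteocytes to 1.5 and 1.39 between the cell types with vehicle. Col4a4 (chr1:82448423-82586849, minus strand) and Col4a3 (chr1:82586921-82722059, plus strand) start 72 bases apart. Here the levels were unlike, Col4a4 being detected in each MSC library and Col4a3 having 1 count over the 3 libraries of each MSC condition. Col4a5 passed the filter and its head-to-head neighbour Col4a6, whose start is 1309 bases away, did not. Col3a1 (chr1:45311538-45349706, plus strand) and Col5a2 (chr1:45374321-45503282, minus strand) lie 24614 bases apart and both fell with FG-4592 in MSCs. Read pairs were counted for each gene they overlap and without strand, so pairs in the shared bases of Col4a1 and Col4a2 count for both.

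Of 45 tested genes that handle collagen, in 5 lists (modification, folding and export, propeptide processing, cross-linking, receptors), 21 rose and 9 fell with FG-4592 in MSCs and 23 rose and 11 fell in osteocytes by FDR. The rises were 46.7% and 51.1% of the list against 17.6% and 21.9% of all genes, and the falls 20% and 24.4% against 20.4% and 22%, so the falls were near the share over all genes. Past both cutoffs 6 rose and 3 fell in MSCs (13.3% and 6.67% against 4.12% and 5.17%), and 8 and 2 in osteocytes (17.8% and 4.44% against 6.25% and 4.26%). Colgalt2, Adamts3, Lair1 and Gp6 were not tested. Of 14 modifying genes, 10 rose in MSCs and 11 in osteocytes, and 1, P4ha3, fell in both. P4ha1, the catalytic subunit of the main collagen prolyl 4-hydroxylase, measured 88.6, 80.0 and 83.7 CPM and then 301, 306 and 310.3 CPM in MSCs (1.86), and 99.5, 84.4 and 85.4 CPM and then 476, 484 and 495 CPM in osteocytes (2.43). P4ha2, its paralogue, rose by 2.40 and 3.12. The groups were far apart in both genes. Plod2, the lysyl hydroxylase of the collagen telopeptides, rose in MSCs from 101, 99.2 and 108 to 369, 356 and 367 CPM (1.83), and in osteocytes, where vehicle libraries already held 862, 834 and 855 CPM, by 0.14. The difference between these responses was −1.68 (FDR = 8.9e-11).

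Of 11 folding and export genes 5 rose and 2 fell in MSCs and 3 rose and 5 fell in osteocytes by FDR. None passed both cutoffs, and Serpinh1, the collagen chaperone HSP47, gave −0.09 (FDR = 0.178) in MSCs and fell by 0.27 in osteocytes. Of 5 cross-linking genes, Lox, which oxidises lysines of fibrillar collagen, rose in both (1.01 and 1.24) and its relative Loxl1 fell in both (−0.79 and −1.68), with Loxl2 at 0.34 (FDR = 0.161) in MSCs and 1.12 in osteocytes. Of 7 processing genes, Pcolce2, an enhancer of procollagen C-proteinase, rose by 1.4 and 1.80 and Adamts14, a procollagen N-proteinase, fell by 1.07 and 1.92 on the log2 scale, while Tll1, a tolloid proteinase, rose in MSCs (1.03, FDR = 0.0248). Of 8 receptors, Itga1, the collagen-binding integrin α1, went opposite ways: it measured 246, 243 and 254 CPM and then 89.8, 86.2 and 95.5 CPM in MSCs (−1.45), and 259, 289 and 272 CPM and then 764, 715 and 795 CPM in osteocytes (1.47), a difference of 2.92 (FDR = 2.48e-12). Itga11, another collagen-binding integrin, fell in MSCs (−1.11) and in osteocytes (−0.29), and Ddr1, a collagen-activated receptor kinase, rose in both (0.60 and 1.03).

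**Figure D5:**
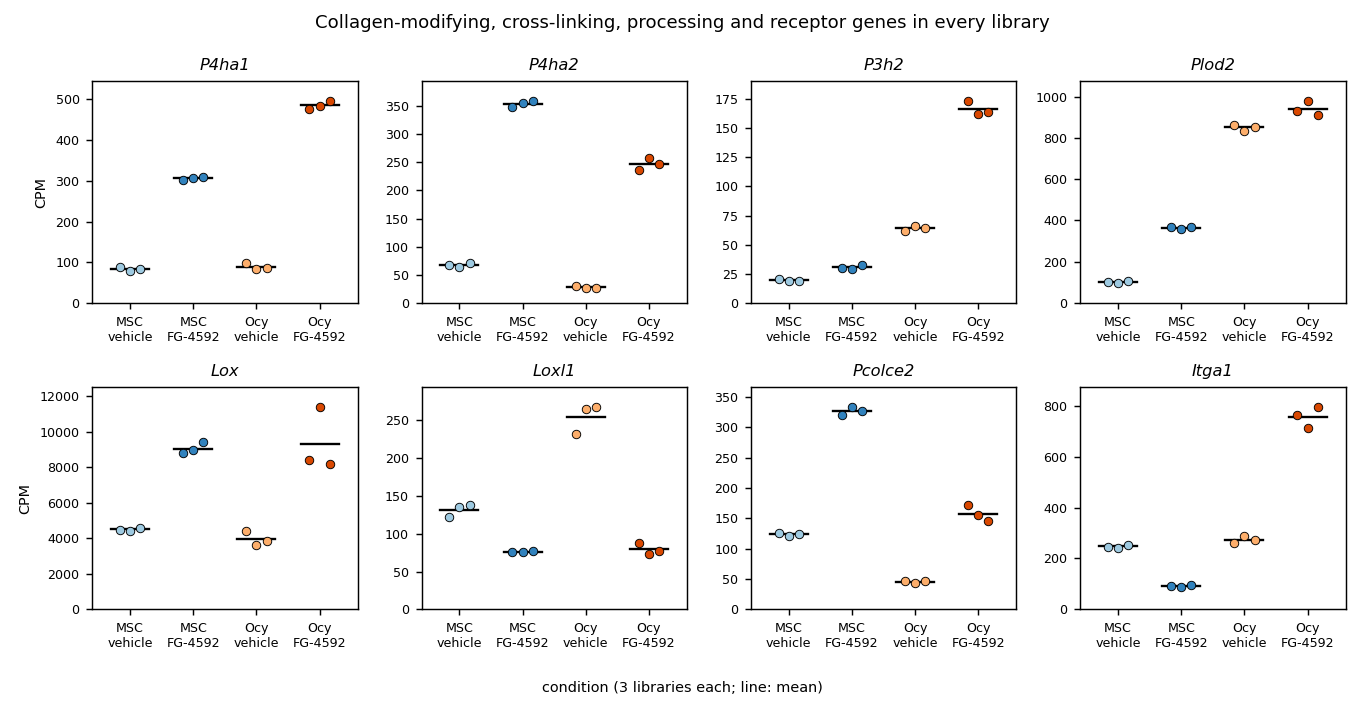
CPM (vertical axis from 0, scale set per panel) of 8 genes that modify, process, cross-link or bind collagen in each library, with a point per library and a line at the mean of 3. P4ha1, P4ha2, P3h2, Lox and Pcolce2 are higher with FG-4592 in both cell types, Loxl1 is lower in both, and Itga1 is lower in MSCs and higher in osteocytes.

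Of the remaining marker lists, endothelial genes summed to at most 2.17 TPM in any library, blood genes to at most 6.22 TPM and muscle genes to at most 8.76 TPM. Cdh5, Kdr and Tie1 of vessels, Hbb-bs and Adgre1 of blood and Myod1 and Myog of muscle had at most 3 counts over each condition. Of 5 tendon markers 3 passed, with sums between 7.92 and 26.9 TPM over the libraries. Of 8 mesenchymal progenitor markers 7 passed, with sums of 2321 to 3043 TPM over the libraries. Its members did not move alike: in osteocytes Ly6a was at 151.7 to 209.2 TPM with vehicle and 911 to 1002 TPM with FG-4592, and Pdgfrb at 739 to 805 and 409 to 442 TPM. Of this list, Thy1 was at or under 3 counts in all conditions but FG-4592 osteocytes.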

How the data were processed

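RNAseq was done on 12 MPC2 libraries, 3 per condition. The authors mapped the paired reads with STAR 2.7.2a (build mm10) and counted them over the genes of Gencode M22 in featureCounts 1.6.2 (mapping quality of at least 10, pairs counted for every overlapped gene, no strand option), and deposited raw counts per gene with exon lengths. All 12 columns were used, and replicate libraries differed by more than sampling noise (chi-square per degree of freedom 9.19 to 35.3).

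The 34 collagen genes, the gene lists, their classes and the tests were chosen with earlier results of these data known. Genes over 10 counts in 3 or more libraries were normalized by TMM and tested in edgeR 4.0.16 under R 4.3.3 (quasi-likelihood test, 4 condition coefficients, 8 residual degrees of freedom, Benjamini-Hochberg over 16484 genes), with cutoffs of FDR under 0.05 and absolute log2 fold change above 1. An exact permutation test of 3 against 3 cannot go below p = 0.1 and was not used. SE is the absolute log2 fold change divided by the square root of F. The combined SD is the root of the summed variances of the groups. TPM used exon lengths from the deposited table. Counting intervals are 95% and conditional on the 2 sums, and cover counting error only.

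Values per library were given for the 5 largest rises and falls per comparison that met both cutoffs and averaged 100 counts or more in their highest condition, for members past both cutoffs in the difference of responses, and for Col1a1, Col1a2, Col3a1, Col5a1 and Col5a2. Other members were given in the same way after their values were seen. Pathway genes were named at up to 3 per list by size of the FG-4592 response, and P4ha3, P3h2, Adamts14 and Serpinh1 were named after their values were seen.

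Scripts were tested on simulated data. Near-identical stretches of at least 100 bases between members and other genes (blastn 2.17.0, Gencode M21) were found in Col3a1, Col4a3, Col5a1 and Col9a3. Promoters are RefSeq, GRCm38.p6. Figures were drawn in matplotlib 3.10.9. Alternatives were other scalings (RLE factors, upper-quartile factors, unscaled library size, factors without collagen genes), DESeq2 1.42.0, the likelihood ratio test, 2 other filters, a fit of the 6 libraries in question, replicate number as a block, removal of members sharing exonic bases, no fold cutoff and each library left out.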

Additional observations from a re-analysis of the deposited data

Results flagged for a closer look

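For 5 collagen genes the response to FG-4592 differed between osteocytes and MSCs by the interaction contrast of edgeR, past an absolute log2 difference of 1 and an FDR under 0.05. The log2 differences, osteocytes minus MSCs, were 2.41 for Col27a1, 1.73 for Col11a2, 1.48 for Col2a1, 1.48 for Col20a1 and −1.21 for Col15a1. Each kept its side of both cutoffs without any one library and in every alternative that formed this contrast and kept the gene. The fit of the 6 libraries in question does not form it. Col15a1 and Col20a1 share exonic bases with another gene. Groups of 3 libraries were not examined for single outlying libraries.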

How the results depend on the processing

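Depth limits the members under 100 counts in every library (Col4a3, Col9a2, Col9a3, Col17a1, Col23a1 and Col24a1), and there were 3 libraries per condition. Of the counts of called members under alternatives, 219 stayed within 1.5 times the reported count and 19 did not, and no called member changed sign. Without the fold cutoff, 10 rose and 11 fell in MSCs with FG-4592, 11 and 11 in osteocytes, 8 fell between the cell types with vehicle and 5 with FG-4592, and 9 were higher and 5 lower in the difference of responses. Without members that share exonic bases no rise was left in MSCs (0), 8 rises and 2 falls between the cell types with vehicle, 1 fall with FG-4592 and 0 negative differences of responses, since fewer genes are counted. With each library left out, rises in MSCs numbered 1 to 3, falls in osteocytes 2 to 6 (2 without osteocyte FG-4592 replicate 1, 6 without osteocyte vehicle replicate 3), falls between the cell types with FG-4592 1 to 2 and negative differences 1 to 2. As a percent of counts instead of TPM, the FACIT class differed by 0.0632 between the cell types with vehicle and the other class by −0.09009 with FG-4592 in osteocytes, since lengths weigh members differently.

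Over the collagen genes and the alternatives that kept them, 42 calls were lost and 25 gained, the losses mostly of Col23a1, Col24a1, Col4a1 and Col9a2. The gains include Col6a4, which is not among the 34 members and fell in osteocytes with no filter (−3.18, FDR = 0.0132). Of the fold changes of the 21 members that the rule gave in full, 2311 kept their direction and side of the thresholds, 19 newly passed, 7 no longer passed and 27 changed sign. Those that changed sign were uncalled, and the cause was not tested. For Col12a1 between the cell types with vehicle they were −0.001136 (upper-quartile factors), −0.01811 (library size alone) and −0.00302 (no filter), and for Col1a2 −0.01313, −0.03009 and −0.01487. Col15a1 in osteocytes gave 0.0009045 with no filter. With each library left out, Col1a1 ranged from −0.08027 to 0.0359 in MSCs, −0.0346 to 0.1864 in osteocytes, −0.04197 to 0.07717 between the cell types with vehicle and −0.004612 to 0.2164 with FG-4592. Col1a2 ranged from −0.08751 to 0.03958 in osteocytes, −0.007697 to 0.1194 between the cell types with FG-4592 and −0.01505 to 0.112 in the difference of responses. Col14a1 ranged from −0.3532 to 0.5149 in that difference, Col15a1 from −0.07336 to 0.04473 in osteocytes, Col20a1 from −0.2755 to 0.06194 and Col8a2 from −1.363 to 0.6014 in MSCs.

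Same-numbered libraries did not deviate together: none of 18 pairs had a correlation of deviations over 0.1 (−0.135 to 0.0543, median −0.0107), so the numbers were not taken as pairs. With the replicate block, 1 member rose and 3 fell in MSCs, 5 rose and 3 fell in osteocytes, and 4 were higher and 1 lower in the difference of responses. Under the block, Col23a1 in MSCs (FDR = 0.061) and Col24a1 in osteocytes (FDR = 0.0637) missed the FDR, and no other call changed.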
